A study of Caenorhabditis elegans with 4 samples.

Results

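The C-type lectin genes of C. elegans, named clec followed by a number, were followed in whole adults that lack the germ granule protein EGGD-1. Members were taken by name and by a minimum of 10 counts summed over the 4 libraries, with no use of the difference between genotypes. The name was carried by 264 rows of the deposited table, and 168 of them reached the minimum, of 47115 rows in all and 18570 rows with at least 10 counts. Of these 168 members, 162 were protein-coding genes and 6 were pseudogenes. The study made 4 directional, rRNA-depleted RNA-seq libraries from synchronized adult cultures grown at 20 °C on OP50 bacteria. The 2 eggd-1 libraries came from null mutants, and the 2 control libraries came from animals with the genotype label pgl-1::RFP, in which the P granule scaffold protein PGL-1 carries a red fluorescent tag. The labels give no age in hours, no treatment and no tissue finer than the whole animal, and they do not say whether the eggd-1 strain carried the same tag.

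C-type lectins are proteins with a domain that was first known for binding sugars in the presence of calcium. The family is much expanded in nematodes, where many members are secreted, often by the intestine, and where sets of them are switched on by particular bacterial or fungal infections. Others have germline roles, among them chondroitin proteoglycans that are carried into the eggshell. For most clec genes no function has been assigned, so a role is given below only for the members that have a well known one.

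The eggd-1 gene, listed in the table as mip-1, had 6.63 and 3.67 normalised counts in the eggd-1 libraries, against 2099 and 2270 in the control libraries. Normalised counts are counts divided by a size factor that puts the libraries on one scale. Library totals were 17603513 to 18707358 counts for eggd-1 and 20223368 to 30812591 for control, and the clec members took 0.343% to 0.353% of them in eggd-1 and 0.343% to 0.356% in control. The share of counts that went to the family thus lay in the same range in both genotypes.

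Of the 168 members, 48 (28.6%) were significantly higher and 26 (15.5%) were significantly lower in eggd-1 mutants, at an adjusted p under 0.05 in the DESeq2 Wald test across all genes with Benjamini-Hochberg adjustment. Over all rows with at least 10 counts the test called 16.8% higher and 18.4% lower, so the lower calls were about as frequent among the lectins as elsewhere and the higher calls were more frequent. The changes were large in both directions. At least 4-fold changes past the same threshold were seen in 26 members (15.5%) that were higher and 12 (7.14%) that were lower, where the whole table gave 5.12% and 0.689%. The median log2 fold change of the members was 0.16, beside 0.0017 over all rows. The 3 members with a genotype at 0 counts stay on the same side of it at their bounds, so they could not move it. In 79 members both eggd-1 values lay above both control values, and in 58 they lay below both; the table as a whole had such separation in 37.3% of rows upwards and 37.5% downwards.

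The members had few counts, with a median total of 122.5 over the 4 libraries beside 446 for all rows, and this set how firmly a single gene could be called. No adjusted p was given to 21 members, and 20 members that were not called had an unadjusted p under 0.05. Among the 90 members with at least 100 counts, 38 were higher and 18 were lower, against 20.4% and 26.0% of all such rows, with a median log2 fold change of 0.35. With each library left out in turn, so that a lone library was assumed to vary like the pair of the other genotype, the calls fell to 18 higher and 13 lower without eggd-1 replicate 1 and to 22 and 16 without eggd-1 replicate 2, and they numbered 32 and 15 when control replicate 1 was dropped and 29 and 16 when control replicate 2 was. The members at least 4-fold lower then numbered 4, 7, 4 and 5 in the same order, and those at least 4-fold higher 13, 15, 17 and 18. Calls that survived every refit, those without a library included, were made for 17 higher and 12 lower members, and no called member changed sign in any of them.

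**Figure D1:**
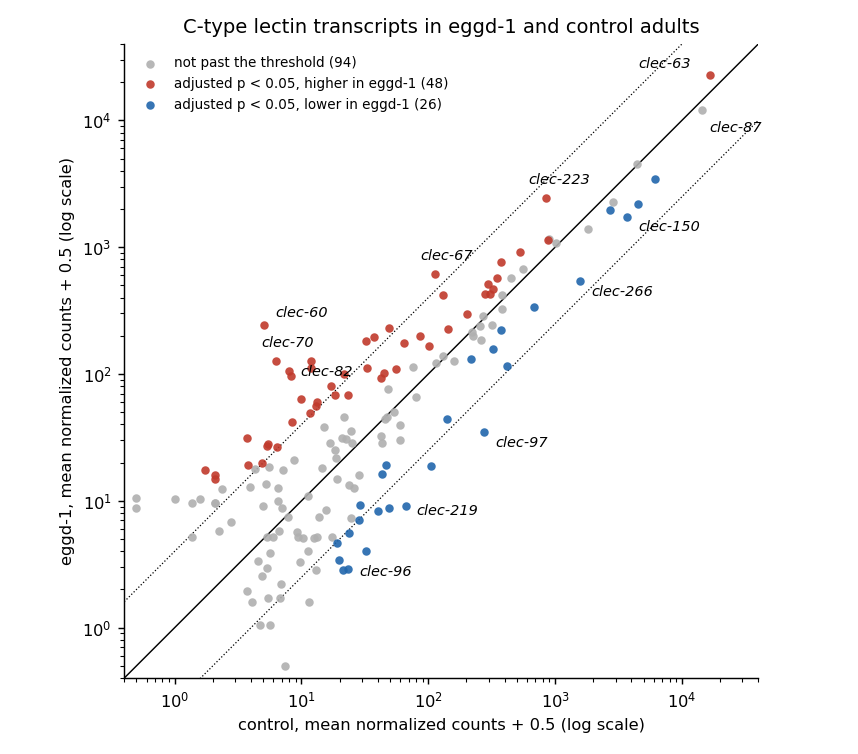
Mean normalised counts of the 168 clec members, with 0.5 added, in eggd-1 (vertical axis) and control (horizontal axis), both on log scales. Each point is a gene, the solid line marks equal levels and the dotted lines a 4-fold difference; the members beyond the dotted lines sit at low to middle control levels, while the most abundant members lie close to the solid line.

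A small number of members supplied most of the lectin RNA. Per kilobase of exon, clec-87 and clec-63 were far above the rest, with mean normalised counts per kilobase of 12500 and 17564 in eggd-1, against 15090 and 12853 in control. Together they made up 47.6% and 47.1% of all members' normalised counts in the eggd-1 libraries and 40.0% and 43.9% in the control libraries. The median member had 24.2 normalised counts per kilobase in eggd-1 and 18.9 in control.

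The most abundant member by counts, clec-63, rose modestly. It had 22526 and 23033 normalised counts in eggd-1, against 16400 and 16941 in control, with a log2 fold change of 0.45 ± 0.11 (SE) and a DESeq2 adjusted p of 0.000465. The groups did not overlap, but the call was lost without either eggd-1 library, each left out on its own, with a log2 fold change of at least 0.42 and an adjusted p of up to 0.108 over the 4 fits that left out a library. Its neighbour clec-62, named for its position, also rose, with 970 and 857 against 521 and 537 normalised counts (log2 fold change 0.79, DESeq2 adjusted p 8.07e-06). The next most abundant lectin without a germline class, clec-50, had 4455 and 4525 normalised counts in eggd-1, against 4059 and 4858 in control, and these values overlapped (log2 fold change 0.0095).

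In contrast, clec-150 fell, with 1701 and 1754 normalised counts in eggd-1, against 3822 and 3594 in control (log2 fold change -1.10 ± 0.13, DESeq2 adjusted p 3.52e-16). The 2 remaining members among the 8 most abundant per kilobase that carry no germline class were clec-1, which is described with the eggshell genes, and clec-209. For clec-209 the table gave 1136 and 1666 normalised counts in eggd-1, against 1923 and 1709 in control, and the gene did not pass the test (log2 fold change -0.37, DESeq2 adjusted p 0.0794). The deposited table gives this symbol to WBGene00021224 and the reference name table gives it to another gene, so its identity is uncertain.

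Several of the largest increases were seen in lectins that are best known from infected animals. A list of 15 clec genes tied to bacterial infection was drawn up from general knowledge, with earlier results of these data known, and 13 of them were members. Of these 13, 8 rose and 1 fell, 5 of them by at least 4-fold upwards, with a median log2 fold change of 1.37 beside 0.16 for all members. Over all members 28.6% rose, and over all rows 16.8% rose, 18.4% fell and 5.12% rose by at least 4-fold. The number of higher calls was 5 without eggd-1 replicate 1 and 6 to 8 without any other library.

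The strongest was clec-60, an intestinal lectin induced by Staphylococcus aureus. It lies at chr II 10480043 to 10481874 in the WBcel235 build and had 293 and 197 normalised counts in eggd-1, against 2.02 and 7.15 in control. That is a 49.6-fold difference between the fitted means, or a log2 fold change of 5.63 ± 0.52 (DESeq2 adjusted p 1.56e-25). With so few control counts the size was loosely set, and without control replicate 2 it became 6.90, or 120-fold. The next gene along the chromosome in this family, clec-61, responds to the same bacterium and had 125 and 66.1 normalised counts in eggd-1, against 9.11 and 6.43 in control (log2 fold change 3.65 ± 0.55, DESeq2 adjusted p 7.08e-10). Both genes had under 10 normalised counts in each control library and were called in every refit.

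Another S. aureus response gene, clec-70, had 160 and 90.5 normalised counts in eggd-1, against 5.06 and 6.43 in control (log2 fold change 4.43 ± 0.55, DESeq2 adjusted p 3.05e-14). The gene beside it, clec-71, had 23.2 and 19.6 against 15.2 and 21.4, so these neighbours with a shared infection response did not move alike here (log2 fold change 0.22 ± 0.66 for clec-71, DESeq2 adjusted p 0.83, and -0.01 without control replicate 1). The members clec-42 and clec-67 also rose: clec-42 had 116 and 104 normalised counts against 9.11 and 13.6, and clec-67 had 573 and 656 against 86.0 and 138. Their log2 fold changes were 3.25 ± 0.46 and 2.43 ± 0.23 (DESeq2 adjusted p 3.59e-11 and 1.08e-23), and neither call was lost in any refit. Part of the clec-67 signal came from reads that align to more than 1 place and were counted as fractions, so its value is less certain than that of clec-42.

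Smaller increases on the infection list were found for clec-17, clec-52 and clec-49. The level of clec-17 was 66.3 and 68.5 normalised counts in eggd-1, against 14.2 and 21.4 in control (log2 fold change 1.90, DESeq2 adjusted p 0.000461), and its call was lost without either eggd-1 library (adjusted p of up to 0.0653). For clec-52 the log2 fold change was 1.23, and the call was lost without eggd-1 replicate 1 (adjusted p 0.102), and for clec-49 it was 0.52, with the call lost without control replicate 1 or either eggd-1 library (adjusted p of up to 0.268). The member clec-85, a commonly used readout of the PMK-1 p38 MAP kinase pathway, was the member of the list that fell. It had 329 and 345 normalised counts in eggd-1, against 661 and 693 in control (log2 fold change -1.01 ± 0.17, DESeq2 adjusted p 9.77e-08), and its groups lay well apart. Of the rest, clec-4 had a log2 fold change of 1.37 (DESeq2 adjusted p 0.055), clec-41 of -0.32 (0.0822) and clec-66 of -0.50 (0.065). The listed genes clec-39, with 6 counts, and clec-29, with 5 counts, were under the minimum.

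Markers of several somatic tissues moved beside these lectins. Of 8 intestinal markers, 4 were higher and 2 lower, and their summed level was 106921 to 108386 normalised counts in eggd-1 and 70774 to 81969 in control. Most of this sum was asp-1, with 77958 and 80186 in eggd-1, against 52450 and 61924 in control. Of 6 hypodermal markers, 4 were higher and none lower, with sums of 17069 to 17367 in eggd-1 and 8865 to 14814 in control. Most of the hypodermal sum was col-19, with 14435 and 15473 in eggd-1, against 8603 and 14510 in control. Its values overlapped and it was not called, so this sum says little about the called markers. All 4 body muscle markers were higher, with sums of 238703 to 240847 in eggd-1 and 115056 to 143720 in control, while none of 4 neuronal markers was higher and 1 was lower. No intestinal or hypodermal marker was at 0 in any library. In libraries of whole animals a change in the number of cells of a type and a change in RNA per cell cannot be told apart, and the part of these markers in the lectin changes was not tested.

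Large increases were also found in lectins outside the infection list. The gene clec-82 had 109 and 102 normalised counts in eggd-1, against 7.09 and 7.86 in control (log2 fold change 3.81 ± 0.51, DESeq2 adjusted p 1.76e-12). Its values within each genotype were nearly equal. The level of clec-180 was 161 and 90.5 against 9.11 and 13.6 (log2 fold change 3.45 ± 0.47, DESeq2 adjusted p 9.1e-12). Both kept their calls in every refit. The increases of clec-172 (log2 fold change 2.51) and clec-55 (2.65) rested on fewer counts, with control values of 7.09 and 2.86 for clec-172 and 4.38 and 2.14 for clec-55. The call of clec-55 was lost without any 1 of the 4 libraries, and that of clec-172 was kept only without control replicate 1, at 3.25. Among abundant members the clearest rise was that of clec-223, chosen after its values were seen, with 2220 and 2649 normalised counts in eggd-1, against 721 and 982 in control (log2 fold change 1.51 ± 0.17, DESeq2 adjusted p 3.82e-17).

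**Figure D2:**
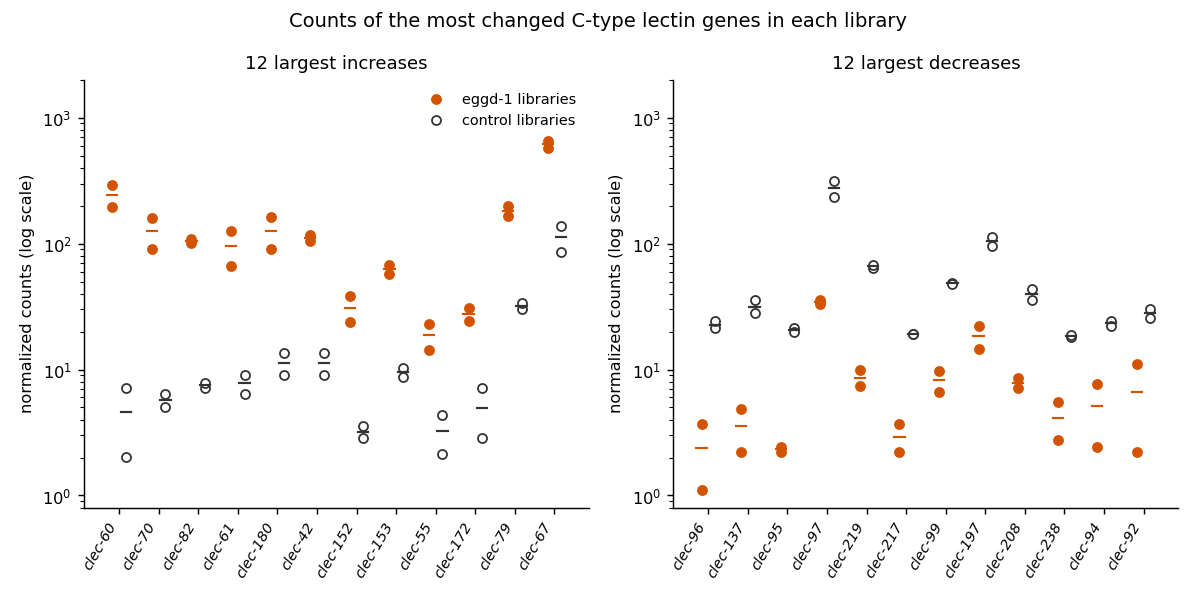
Normalised counts on a log scale for the 12 members with the largest increases (left) and the 12 with the largest decreases (right) among those called with a mean of at least 10; filled points are the eggd-1 libraries, open points the control libraries, and short lines their means. In all 24 genes the groups do not overlap, and the control values of the increases are at most 13.6 apart from clec-79 and clec-67.

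The members that rose by at least 4-fold had low levels in control adults, with a median control mean of 7.83 normalised counts and a highest of 112. The members that fell by at least 4-fold had a median control mean of 29.9 and a highest of 275. The best measured of the large decreases was clec-97, which had 35.4 and 33.0 normalised counts in eggd-1, against 316 and 234 in control (a fitted ratio of 0.125 with an SE of 0.32 on the log2 scale, DESeq2 adjusted p 3.1e-19). The gene clec-219 had 9.94 and 7.34 against 63.8 and 67.9 (log2 fold change -2.92 ± 0.58, adjusted p 4.71e-06), and clec-197 had 22.1 and 14.7 against 113 and 96.5 (log2 fold change -2.50 ± 0.44, adjusted p 2.15e-07). The calls of these 3 genes and of clec-99 (log2 fold change -2.56) survived every refit.

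The other large decreases rested on few counts in both genotypes. In eggd-1 libraries clec-96, clec-137, clec-95, clec-217, clec-238, clec-94 and clec-92 had between 1.10 and 11.01 normalised counts each, and in control libraries between 18.2 and 35.4, with log2 fold changes from -3.28 to -2.11. The groups were well separated, yet clec-94, clec-95, clec-96, clec-217 and clec-238 lost their calls without any 1 of the 4 libraries. Without eggd-1 replicate 2 the log2 fold changes were -1.58 for clec-94, -4.36 for clec-96, -3.83 for clec-137 and -3.06 for clec-238, and without eggd-1 replicate 1 they were -3.25 for clec-94 and -2.64 for clec-96. The call of clec-137 was lost without control replicate 1 or eggd-1 replicate 1, and clec-92 kept its call only without eggd-1 replicate 2, with a log2 fold change of -3.66, against -1.35 without eggd-1 replicate 1. Below 4-fold, clec-196 fell clearly, with 120 and 111 normalised counts in eggd-1, against 426 and 405 in control (log2 fold change -1.84 ± 0.22, DESeq2 adjusted p 5.65e-15), and was named after its values were seen.

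Many clec genes lie side by side on the chromosomes. With members linked when their starts were at most 20000 bases apart on a chromosome, 69 members fell into 13 runs of at least 3 genes and 61 members stood alone. Several calls were made in 10 of these runs: only higher in 7, only lower in 1 and in both directions in 2. The other 3 runs held a single call each, and no rate of shared direction was computed for other neighbouring genes. Genes of a run are often close copies that share sequence, so they are not independent of each other, and these runs and the members named from them were described after their values were seen.

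The run in which every member was called lower was the group from clec-94 to clec-99 on chromosome I, 5 members within 12.4 kb at 11146448 to 11158833. All 5 were at least 4-fold lower, with log2 fold changes between -3.28 and -2.17. Only clec-97 and clec-99 kept their calls when a library was left out, as given above. On chromosome I as a whole, 8 of 19 members were lower and 1, clec-17, was higher, with a median log2 fold change of -1.67, while all rows on that chromosome had 23.4% lower calls and a median of -0.08. The 8 lower calls became 4 without eggd-1 replicate 1 or control replicate 2 and 5 without eggd-1 replicate 2 or control replicate 1. In the run from clec-136 to clec-139 on chromosome II, 1 of 4 members, clec-137, was called lower, and the others had log2 fold changes of -1.38, -2.44 and -1.06 (DESeq2 adjusted p 0.302, 0.101 and 0.225).

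The run with the most higher calls spanned 92.1 kb on chromosome IV, from clec-67 to clec-78, and held 11 members. Of these, 8 were called higher and 7 were at least 4-fold higher, with a median log2 fold change of 2.14, and none was called lower. Beside clec-67, clec-70 and clec-79 the called genes were clec-72, clec-73, clec-75, clec-76 and clec-174. For example, clec-73 had 254 and 206 normalised counts in eggd-1, against 42.5 and 53.6 in control (log2 fold change 2.25 ± 0.30, DESeq2 adjusted p 1.23e-12), and clec-72 had 158 and 192 against 60.2 and 66.5 (log2 fold change 1.46 ± 0.30, adjusted p 9.59e-06). Counts of clec-67, clec-72, clec-73 and clec-79 include fractions from shared reads. The genes clec-71, clec-74 and clec-78 in the same stretch were not called, with log2 fold changes of 0.22, -1.47 and 0.14. The calls of clec-75, clec-76 and clec-174 were each lost in at least 1 fit that left out a library. The log2 fold change of clec-76 was 1.28 without eggd-1 replicate 1, that of clec-75 was 3.92 without control replicate 2, and that of clec-174 was 1.48 with control replicate 1 left out and 3.24 with control replicate 2 left out. The higher calls in the run numbered 5 without eggd-1 replicate 1 and 6 or 7 without any other library.

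Closer to the left end of chromosome IV, the run from clec-80 to clec-85 held both directions over 31.7 kb. Besides clec-82, the genes clec-80 (log2 fold change 0.57), clec-83 (1.02) and clec-84 (0.70) rose, while clec-85 at the end of the run fell. The call of clec-80 was lost without any 1 of the libraries, and that of clec-84 without either eggd-1 library. Chromosome IV as a whole had 19 higher and 4 lower members of 43, with a median log2 fold change of 0.57 beside 19.2% higher calls and a median of 0.03 for all rows there. The 19 higher calls became 9 without eggd-1 replicate 1, 12 without eggd-1 replicate 2 and 15 without either control library.

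The largest run, from clec-40 to clec-33 on chromosome V, held 12 members within 30.7 kb at 16839121 to 16869840, all at low levels. In eggd-1 libraries their normalised counts ranged from 1.22 for clec-22 to 78.3 for clec-26, and in control libraries from 0 for clec-24 and clec-33 to 58.7 for clec-26. In 11 of the 12 genes both eggd-1 values were above both control values, clec-22 being the exception, where 37.3% of all rows were separated upwards. However, 5 had too few counts for an adjusted p and only clec-28 (log2 fold change 2.11, DESeq2 adjusted p 0.0209) and clec-35 (3.12, 0.0311) were called. Both lost their calls without any 1 of the libraries, and the log2 fold change of clec-35 was 2.27 with eggd-1 replicate 2 left out and 3.80 with control replicate 2 left out. The values of clec-36 were 51.9 and 37.9 against 21.3 and 20.7 (log2 fold change 1.10, adjusted p 0.0814), and the remaining members with an adjusted p, clec-25, clec-26, clec-31 and clec-33, ranged from 0.0795 to 0.438.

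**Figure D3:**
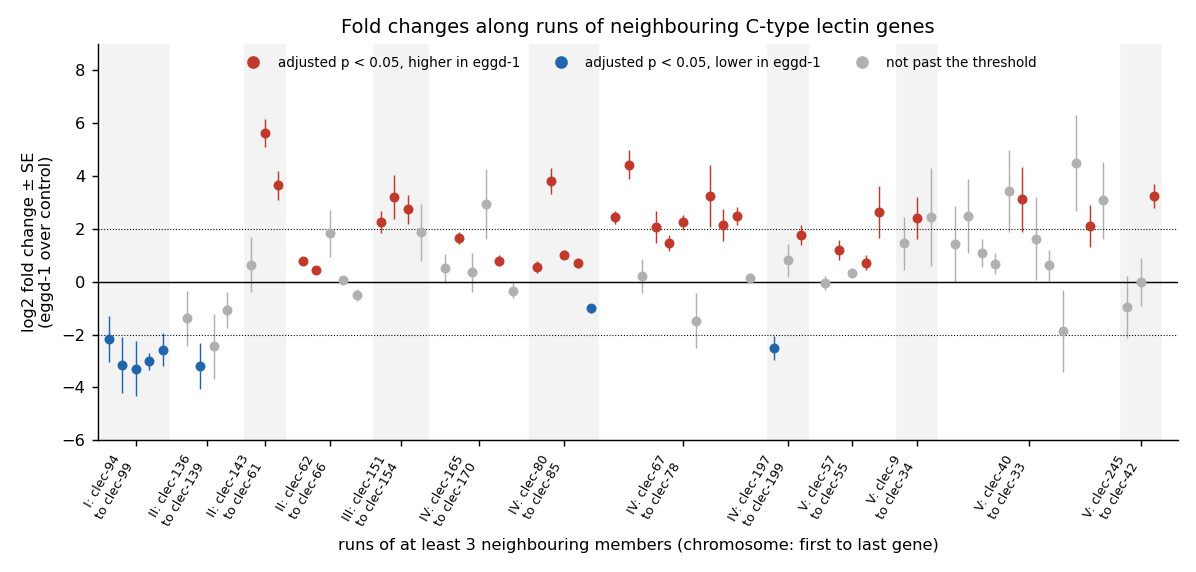
Log2 fold change of eggd-1 over control with its standard error for the 69 members in 13 runs of at least 3 neighbours, ordered by chromosome and position; red points are called higher, blue points called lower and grey points not called, and dotted lines mark a 4-fold change. The run from clec-94 to clec-99 lies below -2 throughout, and 8 of 11 points in the run from clec-67 to clec-78 are red.

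The deposited table assigns genes to germline classes, and the Spermatogenic class, genes enriched in germ lines that make sperm, held many of the large increases. The members of the germline classes described here were picked out after their values were seen. Of its 16 clec rows 15 were members, and 11 of these rose and 1 fell, 10 of them by at least 4-fold upwards, with a median log2 fold change of 2.26. The class as a whole, without piRNA genes, had 2479 rows with at least 10 counts, of which 1049 (42.3%) rose, 108 (4.36%) fell and 462 (18.6%) rose by at least 4-fold, with a median of 1.11. The higher calls among the 15 members numbered 5 without eggd-1 replicate 1, 6 without eggd-1 replicate 2 and 7 without either control library.

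The best measured of these genes were clec-123, clec-73 and clec-79, which are also the members of the class with the smallest standard errors at 4-fold or more. The gene clec-123 had 205 and 185 normalised counts in eggd-1, against 33.4 and 40.7 in control (log2 fold change 2.39 ± 0.31, DESeq2 adjusted p 1.37e-12). For clec-79 the values were 198 and 165 against 30.4 and 33.6 (log2 fold change 2.50 ± 0.33, adjusted p 1.69e-12). These levels had little scatter within a genotype, and the 3 calls were kept in every refit. Along with clec-142, the genes clec-123 and clec-73 belong to the class of targets of the sperm Argonautes ALG-3 and ALG-4, which bind small RNAs in sperm-producing germ lines. All 3 members of that class rose, although the call of clec-142 (log2 fold change 2.13, adjusted p 0.049) was lost without any 1 of the libraries. Of the 388 rows of that class with at least 10 counts, without piRNA genes, 45.6% rose, 14.4% fell and 19.8% rose by at least 4-fold, with a median of 1.32.

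On chromosome III, the neighbours clec-151, clec-152, clec-153 and clec-154 all belong to the Spermatogenic class, and 3 of the 4 rose. The values of clec-153 were 57.3 and 67.8 normalised counts in eggd-1, against 10.3 and 8.70 in control (log2 fold change 2.75 ± 0.55, DESeq2 adjusted p 6.24e-06). The pseudogene clec-152 had 38.1 and 23.9 against 2.86 and 3.57 (log2 fold change 3.22 ± 0.84, adjusted p 0.000621), and its call was lost without eggd-1 replicate 1. All 4 genes received fractional counts, and the authors' counting could have split reads among them, so the single values are less certain than the direction of the group. The exception within the class was clec-208, which had 7.18 and 8.56 normalised counts in eggd-1, against 35.9 and 43.6 in control (log2 fold change -2.41, adjusted p 0.0018), and kept its call only without eggd-1 replicate 2 when libraries were left out.

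Sperm markers moved with these lectins. All 6 sperm markers with at least 10 counts were higher in eggd-1, with sums of 1453 to 1769 normalised counts in eggd-1 and 373 to 483 in control, and their part in the lectin changes was not tested. Markers of the male soma gave sums of 37.9 to 46.4 in eggd-1 and 28.6 to 34.4 in control, with none of 4 called. Only 2 of these 4, mab-3 and ram-5, had an adjusted p. Most of the sum was mab-3, and the 4 markers moved in different directions. Log2 fold changes were 2.31 for ram-5 (DESeq2 adjusted p 0.0879), 0.42 for mab-3 (0.643), -0.43 for lov-1 and -1.46 for pkd-2. The sum therefore says little about the male soma. Without the Spermatogenic class, 37 of 153 members (24.2%) were higher and 25 (16.3%) were lower, and the median log2 fold change was -0.02. Over all rows with at least 10 counts, that class included, 16.8% were higher and 18.4% lower, and no share was computed for the rows outside the class.

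The lectins with an Oogenic class, genes enriched in germ lines that make oocytes, moved the other way. None of the 5 rose and 3 fell, with a median log2 fold change of -0.81 beside 30.9% lower calls and a median of -0.22 for the 1700 rows of the class. The eggshell proteoglycan gene clec-88 had 3596 and 3353 normalised counts in eggd-1, against 6328 and 5857 in control (log2 fold change -0.81 ± 0.12, DESeq2 adjusted p 1.85e-09). Its partner in that role, clec-87, had 12243 and 11757 against 12738 and 16235, values that did not overlap but lay close (log2 fold change -0.27 ± 0.14, adjusted p 0.109). The gene clec-91 had 2091 and 2253 against 4780 and 4239 (log2 fold change -1.05 ± 0.13, adjusted p 5.85e-14). On the X chromosome, clec-266 had 587 and 489 against 1623 and 1529 (log2 fold change -1.55 ± 0.16, adjusted p 2.6e-21). These 3 falls were called in every refit, while clec-12 was not called (log2 fold change -0.27).

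The chondroitin proteoglycan gene clec-1, which carries no germline class in the table, had 1837 and 2063 normalised counts in eggd-1, against 2662 and 2779 in control (log2 fold change -0.48 ± 0.13, DESeq2 adjusted p 0.00145). Its call was lost without either eggd-1 library, with adjusted p up to 0.199. Oocyte markers did not fall with these genes: 3 of 6 were higher and none lower, with sums of 142860 to 159164 normalised counts in eggd-1 and 99488 to 135338 in control. Embryo markers summed to 110 to 129 in eggd-1 and 275 to 287 in control, with 1 of 5, pes-10, called lower. Most of this sum was pes-10, with 91.7 and 72.2 in eggd-1, against 204 and 210 in control. The sum therefore says little about the other embryo markers, and the part of these markers in these changes was not tested.

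Fold change also varied with gene length. Among protein-coding members with under 1000 bases of summed exon, 7 of 59 (11.9%) rose and 17 (28.8%) fell, with a median log2 fold change of -0.86. Among those with 1000 bases or more, 39 of 103 (37.9%) rose and 9 (8.74%) fell, with a median of 0.68. The limit of 1000 bases was set after the values were seen. All protein-coding rows of the short kind had nearly the same call rates as the short lectins, 11.9% higher and 27.9% lower, with a smaller median of -0.23. The longer rows had 21.6% higher and 15.6% lower with a median of 0.11. The frequency of calls among short lectins was therefore that of short genes in general, whereas 4-fold falls were seen in 11 of the 59 short members (18.6%) and in 1.26% of all short protein-coding rows.

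The members that fell by at least 4-fold had a median exon length of 734 bases, and those that rose by at least 4-fold one of 1682 bases. Spearman's rho between log2 fold change and exon length was 0.45 over all 168 members, the 6 pseudogenes included, and 0.21 over 16389 protein-coding rows. Both are given as a description, since the genes share libraries and many share sequence. Leaving out a library brought the short members to between 1 and 5 higher and 7 to 11 lower calls, and the longer members to between 17 and 26 higher and 5 to 7 lower calls. Without the Spermatogenic class the longer members had 31 of 95 (32.6%) higher and 9 (9.47%) lower, with a median of 0.57. The 21.6% higher and 15.6% lower given for all longer rows include that class.

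**Figure D4:**
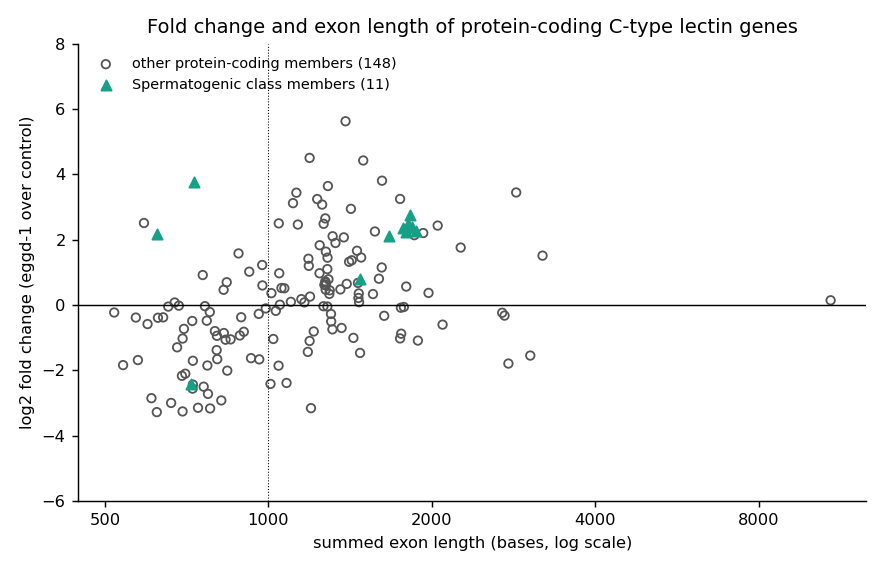
Log2 fold change of eggd-1 over control against summed exon length on a log scale for the 159 protein-coding members with counts in both genotypes; triangles are the 11 members of the Spermatogenic class drawn, circles the other 148, and the dotted line stands at 1000 bases. Points left of the line lie mostly below 0 and points right of it mostly above 0.

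In a list of 24 signalling and transcription factor genes that control infection responses, 6 rose, 2 fell and none changed by 4-fold, with a median log2 fold change of 0.28, beside 16.8% higher and 18.4% lower calls over all rows with at least 10 counts, and 5.12% and 0.689% at 4-fold. The p38 kinase gene pmk-1 had a log2 fold change of 0.31 (DESeq2 adjusted p 0.141), the beta-catenin gene bar-1, which acts upstream of clec-60 in S. aureus infection, 0.28 (0.322), and the intestinal GATA factor gene elt-2 0.10 (0.748). The transcription factor gene hlh-30, an orthologue of mammalian TFEB, rose by 0.38 on the log2 scale (adjusted p 0.0117), a call that was lost without either eggd-1 library (adjusted p of up to 0.251). All these are RNA levels, and protein activity was not measured in these libraries. By imaging, the paper reports more tagged HLH-30 protein in nuclei of the intestine, though not of the germ line, when eggd-1 was lost. The 6 higher calls were all lost without either eggd-1 library, and without control replicate 1 the number was 3.

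Large changes were also found among other antimicrobial effectors. In a list of 38 lysozymes, saposin-like proteins, thaumatins, galectins, proteases and infection response genes, 36 had at least 10 counts, and 15 of them rose and 7 fell, with 6 at least 4-fold higher and a median log2 fold change of 0.50, beside the same 16.8%, 18.4% and 5.12% over all rows, so the lower calls were about as frequent as elsewhere. The lower calls numbered 3 without either eggd-1 library. The invertebrate lysozyme gene ilys-3 had 114 and 55.0 normalised counts in eggd-1, against 1.01 and 0.715 in control, a ratio of 103 with a 95% counting interval of 27.9 to 855. The flavin-containing monooxygenase gene fmo-2 had 122 and 122 against 11.1 and 10.7 (log2 fold change 3.48 ± 0.45, DESeq2 adjusted p 2.61e-13), and irg-4, an infection response gene, had 676 and 648 against 123 and 100.1 (log2 fold change 2.58 ± 0.20, adjusted p 2.24e-34). The other 4-fold increases were those of irg-6 (log2 fold change 4.32), ilys-2 (2.98) and asp-12 (2.55), and smaller ones were found for irg-5 (1.82), lys-6 (1.81), thn-1 (1.84), lys-7 (1.199) and thn-2 (1.17). The call of ilys-2 was lost without control replicate 2, eggd-1 replicate 1 or eggd-1 replicate 2, and that of thn-1 without any 1 of the libraries. The galectin gene lec-10, whose protein binds sugars through a different fold, fell, with 1678 and 1717 normalised counts against 4203 and 3746 (log2 fold change -1.23 ± 0.13, adjusted p 6.8e-19).

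At the low end, 3 members had no count in 1 genotype. The gene clec-230 had 15 and 3 counts in the eggd-1 libraries and none in the control libraries, which puts it at least 3.91-fold higher in eggd-1 when a floor of 3 counts per library is used, and clec-2 was at least 3.17-fold higher on the same floor. In the other direction, clec-134 had no count in eggd-1 and 6 and 11 counts in control, which puts it at least 2.0-fold lower. None of the 3 was given an adjusted p by DESeq2, and of the refits only the edgeR quasi-likelihood test called them. The members closest to the minimum were clec-181, clec-237 and clec-34 with 10 counts each, and the rows just outside it were clec-101 and clec-144 with 9 counts each. Of the 96 clec rows below the minimum 37 had no count at all and 19 were pseudogenes, and clec-38, which has a role in neurons, had 3 counts. The rows below the minimum had too few counts for their differences to be described.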

How the data were processed

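Libraries were made by the authors from rRNA-depleted total RNA of whole adults and sequenced as paired reads. The methods name TrimGalore, STAR, SAMtools and featureCounts with WormBase release 279 annotation. The authors counted reads by strand, with reads that align to several places given as fractions, and added Salmon estimates for transposons. The deposited values are therefore expected counts per gene, which were rounded to whole numbers here. Of the members, 37 (22.0%) had fractional counts, beside 13.1% of all rows with at least 10 counts. Per the deposited table, 7 further columns belong to no sample and were not used.

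The main test was the DESeq2 1.42.0 Wald test (R 4.3.3), with 2 libraries for each genotype, all rows with at least 1 count in total and unshrunken log2 fold changes. Adjusted p-values were taken over all rows, and those that DESeq2 left undefined stayed undefined. The method was tested on simulated data, drawn with the spread fitted to these libraries and changed only in genes with a mean of at least 10. That test says nothing about members with fewer counts or about replicates that may be technical. The paper calls the libraries biological replicates in its methods, while the sample titles and a legend call them sequencing replicates, so p-values measure only the spread between these libraries, which may be technical. Exon lengths and positions came from Ensembl release 115 (WBcel235), a different release from the one used for counting. Intervals and floors cover counting error only, at 95% and 3 counts.

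The members and the lists of genes were chosen with earlier results of these data known. The text names the 12 members with the largest called change in each direction at a mean of at least 10 normalised counts, the 8 most abundant per exon length in control, the members of the role lists, the largest run, and the members at the count minimum. Of the immune lists it names the genes with a called log2 fold change of at least 1 in size and pmk-1, hlh-30, elt-2 and bar-1. Alternatives were edgeR 4.0.16 with the quasi-likelihood test, other size factors, a filter of 10 counts in 2 libraries, a replicate block, fractions cut down, and each library left out. Protein and promoter sequences were not used here.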

Additional observations from a re-analysis of the deposited data

How the results depend on the processing

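The calls among the 168 members depended most on the number of libraries. Counts of calls from the refits, here and above, are given without the share of all rows called in the same fit. They therefore do not show whether the excess of higher calls over all rows was kept. Leaving out 1 library gave 18 to 32 higher and 13 to 16 lower members (48 and 26 with all libraries), 13 to 18 at least 4-fold higher (26), 4 to 7 at least 4-fold lower (12), and a median log2 fold change of 0.0637 to 0.3696 (0.1619). The members clec-50 and clec-71, neither of them called, had log2 fold changes of -0.1247 and -0.0134 without control replicate 1, turned from those with all libraries, and of up to 0.1277 and 0.4771 without control replicate 2; the cause was not tested. Among only the 90 members with at least 100 counts, taken from the same fit, 16 (17.8%) were at least 4-fold higher and 5 (5.56%) lower. Of all rows with at least 100 counts, 4.32% were at least 4-fold higher and 0.549% lower. The median of these 90 members was 0.352. A filter of 10 counts in 2 libraries gave a median of 0.3177, and leaving out members with fractional counts one of 0.0867. The edgeR quasi-likelihood test kept all 74 calls, added 32, and gave 67 higher and 39 lower members. TMM size factors and fractions cut down kept 74 calls, library totals 71 and the filter 73. Replicate numbers are shared by the genotypes, but same-numbered libraries did not deviate together (correlation -0.0434 over 15192 rows) and the labels give no common origin; with the number as a replicate block, 37 members were higher and 19 lower, 56 of 74 calls were kept and none was added. Depth limited the members with few counts, as 21 had no adjusted p.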
